A study of Homo sapiens with 2 samples.

Results

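TMED genes encode the p24 proteins, small membrane proteins of the early secretory pathway. They cycle between the endoplasmic reticulum and the Golgi, bind cargo with a GOLD domain in the lumen, and bind the COPI and COPII vesicle coats with a short cytoplasmic tail. They work as complexes of members from different subfamilies, named alpha, beta, gamma and delta, and are known for the export of GPI-anchored proteins and of some Wnt ligands. The 9 members described here were chosen by name, TMED1 to TMED5 and TMED7 to TMED10, and all 9 were found among the 28303 genes with a value. The family was taken up because TMED7 was already known to have one of the largest differences between these libraries, so that difference is given as a description, without a test.

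RNA was sequenced in 2 libraries of HGC27 cells, a human line established from a gastric cancer. The control cells were transfected with the empty plasmid pcDNA3.1, and the other cells with pcDNA3.1 carrying LINC01133, a long non-coding RNA; both were harvested after 48 h. The vector drives its insert from a viral promoter, and the labels do not say what share of the cells took it up. Both libraries were poly(A)-selected and held 15666629 and 16302581 counted fragments, control first. With 1 library per group nothing below has a replicate check: intervals are exact 95% intervals that cover counting error only. FPKM is a fragment count scaled to the exon length of the gene and to the depth of its library. Of LINC01133 itself the control had 4 fragments, against 74 in the library labelled as overexpressing it, an FPKM of 0.0809 and 1.44. Of the 7 epithelial and 4 gastric marker genes with a value, 0 reached a mean FPKM of 1. Of 8 mesenchymal and fibroblast markers 7 did, and the summed FPKM of all 8 was 494 in the control and 555 with the LINC01133 plasmid. Of these 7 genes, 5 were higher with the LINC01133 plasmid, among them VIM (198 and 210) and POSTN (33.7 and 98.8). COL1A1 (209 and 162) and COL1A2 (3.53 and 2.99) were lower. In bulk RNA, more cells expressing a gene and more RNA per cell cannot be told apart.

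The p24 proteins differ in the tail that meets the coats, and TMED7 also shares its first exons with a readthrough gene, so both stretches are shown here. Each line below holds 10 codons of the principal transcript, read on GRCh38 from GENCODE release 29, with a pair of codons for hydrophobic residues in capitals.
TMED9 (alpha, chr5:177595384-177595413, plus strand): aagagcTTCTTTgaagccaagaagcttgtg
TMED4 (alpha, chr7:44579482-44579511, minus strand): aagagcTTCTTTgaggccaagaagctggtg
TMED2 (beta, chr12:123596697-123596726, plus strand): aagagaTTTTTTgaagtccggagagttgtt
TMED10 (delta, chr14:75134891-75134920, minus strand): cgacgcTTCTTCaaggccaagaaattgatt
TMED1 (gamma, chr19:10833004-10833033, minus strand): aagcgcTTCTTCcaggacaagcgcccggtg
TMED3 (gamma, chr15:79322164-79322193, plus strand): aaaagcTTCTTCacagaaaaacgacccatc
TMED5 (gamma, chr1:93154679-93154708, minus strand): aagagtCTGTTTgaagataagaggaaaagt
TMED7 (gamma, chr5:115616230-115616259, minus strand): aaaagcTTTTTCtcagataaaagaaccacc

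The capitals mark a pair of phenylalanine codons in 7 of these 8 genes and a leucine and a phenylalanine codon in TMED5. Adjacent lysine codons follow the pair in TMED9, TMED4 and TMED10, the arrangement known for COPI binding. They are not in these 10 codons of TMED2 or of the 4 gamma members. TMED8 has a GOLD domain but is placed in none of the 4 subfamilies, and no window is shown for it. The windows also differ in base composition, with a GC content of 33.3% in TMED5 and TMED7 and 63.3% in TMED1.

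TMED7 carries cargo such as the receptor TLR4 towards the cell surface. The control library held 6 of its fragments and the overexpression library 617. Its FPKM was 0.0984 (0.0361 to 0.214) in the former and 9.72 (8.97 to 10.5) in the latter. The library with the LINC01133 plasmid was thus the high one, by a ratio of 98.8 (45.1 to 270.3), and the counting intervals of the levels lay far apart. On the scale used for calls, the log2 ratio of FPKM + 1, the difference was 3.29, the 4th largest of the 11945 genes whose mean FPKM reached 1. TMED7 was above the level of 35.3% of all listed genes in the control, and of 84.7% of them with the LINC01133 plasmid.

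TMED7 lies on the minus strand at chr5:115613508-115632992 and shares exons with TMED7-TICAM2, a readthrough gene on that strand at chr5:115578642-115626161 that joins it to the adaptor gene TICAM2. The shared stretch is 935 bases, 24.01% of the 3894 exon bases of TMED7. It covers 566 of its 672 coding bases, or 84.2%, and 0 bases of the 3′ UTR of its principal transcript. Their coding sequences part inside the third exon, as the next lines show, with the last 15 shared bases in lower case and the 15 that follow in capitals.
TMED7 (chr5:115616303-115616332, minus strand): aagagtggcctattgGTCAGTAGGAGAAGC
TMED7-TICAM2 (the capitals lie at chr5:115581183-115581197): aagagtggcctattgGCACAGTGTGGATAC

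No value of the readthrough gene was analysed here, so it could not be set beside TMED7 directly. The sources used here do not give how fragments in shared exons were assigned. TICAM2, which encodes the TLR4 adaptor TRAM at the far end of the readthrough, was listed at 0 in the control, where 3 fragments would have been an FPKM of 0.0590. In the overexpression library it had 3 fragments, an FPKM of 0.0567. This says little on the readthrough transcript, because 82.2% of the exon bases of TICAM2 are exon bases of the readthrough gene too. The antisense gene TICAM2-AS1, which shares 225 exon bases with TMED7 on the other strand, had 0 and 4 fragments. With TMED7 and TICAM2 added up as 1 locus the fragments were 6 and 620, and the log2 ratio remained at 3.29. If the shared bases gave no fragments, the level per unshared kilobase would be 0.129 and 12.8.

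**Figure D1:**
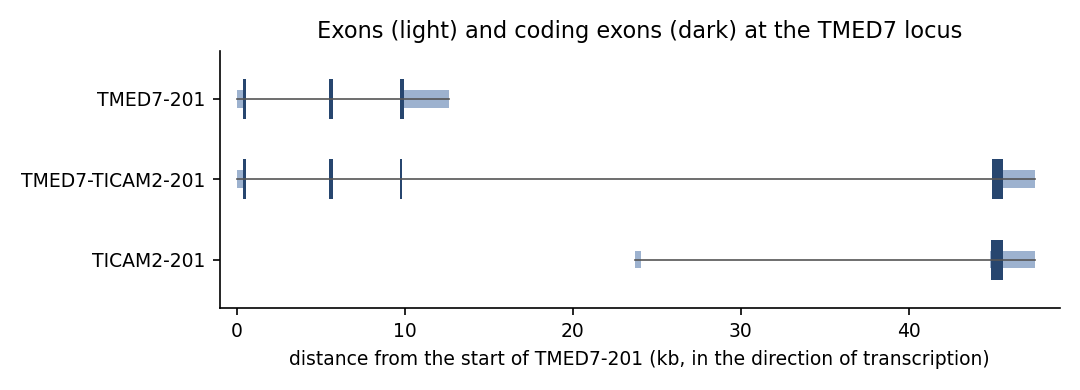
Exons (light) and coding exons (dark) of the principal transcripts of TMED7, the readthrough gene and TICAM2, against the distance in kilobases from the start of TMED7-201. The first coding exons of TMED7 are also those of the readthrough transcript, while its long last exon is largely its own.

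TMED5, a gamma member linked to the transport of Wnt ligands, rested on 114 fragments without and 982 with the LINC01133 plasmid. Its FPKM was 0.772 (0.637 to 0.928) and 6.39 (6.00 to 6.81), again low in the control and high with the LINC01133 plasmid. That is a ratio of 8.28 (6.81 to 10.1), or 2.06 as the log2 ratio of FPKM + 1, in place 75 of the 11945 genes. TMED5 lies at chr1:93149742-93180728 on the minus strand and shares 675 exon bases, 7.16% of its own, with CCDC18 on the opposite strand. CCDC18 was higher as well, with an FPKM of 0.476 and 2.43, and its part in the value of TMED5 was not tested.

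The other gamma members were lower in the overexpression library. TMED1, known to bind the interleukin receptor ST2, had an FPKM of 11.5 (10.2 to 12.97) without and 8.03 (6.95 to 9.23) with the LINC01133 plasmid, so the ratio was 0.697 (0.577 to 0.840). Its value is uncertain, since 51.3% of its exon bases are shared with the dynamin gene DNM2 on the opposite strand. DNM2 had an FPKM of 34.0 and 25.5. TMED3 had 2902 and 1951 fragments and an FPKM of 9.51 (9.17 to 9.87) and 6.15 (5.88 to 6.43). Its ratio was 0.646 (0.610 to 0.684). Thus the gamma subfamily split, with TMED5 and TMED7 at log2 ratios of 2.06 and 3.29 and TMED1 and TMED3 at -0.47 and -0.56.

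TMED2 and TMED10, the beta and delta members and core partners in p24 complexes, were both higher in the overexpression library, by similar factors. TMED2 had an FPKM of 19.999 (18.9 to 21.2) and 29.5 (28.1 to 30.8), a ratio of 1.47 (1.37 to 1.59). TMED10, which is also known as a partner of gamma-secretase, had 54.9 (53.3 to 56.6) and 78.9 (76.9 to 80.8), a ratio of 1.44 (1.38 to 1.49). TMED10 rested on the most fragments of any member, 4281 and 6394. Neither the difference of TMED2 nor that of TMED10 reached 2-fold.

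The alpha members were lower. TMED9, known to retain misfolded proteins in the early secretory pathway, had an FPKM of 70.5 (67.8 to 73.2) in the control and of 46.0 (43.9 to 48.1) with the LINC01133 plasmid, so the ratio was 0.652 (0.614 to 0.692). TMED4 had 26.7 (25.4 to 28.04) and 23.2 (22.0 to 24.4), a ratio of 0.868 (0.808 to 0.933), the smallest difference among the 9. TMED8 was higher in the overexpression library, with an FPKM of 7.36 (6.89 to 7.86) and 14.3 (13.6 to 14.97). Its ratio of 1.94 (1.79 to 2.11) was just under 2-fold.

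**Figure D2:**
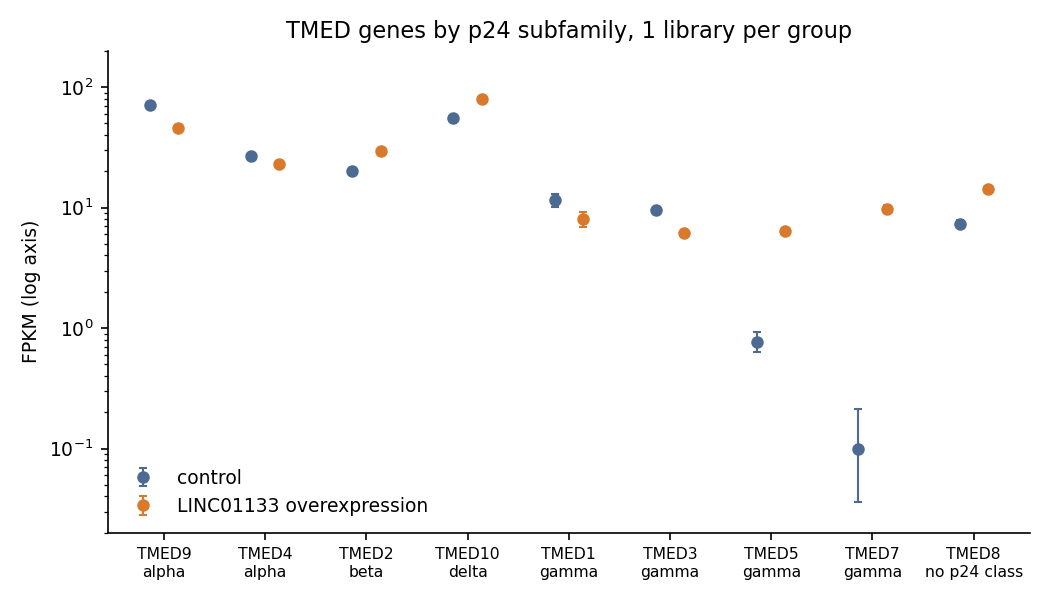
FPKM of each TMED gene on a log axis, in the control (blue) and the LINC01133 overexpression library (orange), ordered by p24 subfamily; points are single libraries and bars are exact 95% Poisson counting intervals. TMED5 and TMED7 are the members below an FPKM of 1 in the control, and all 9 members lie between 6.15 and 78.9 in the overexpression library.

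Counted at 2-fold in FPKM + 1, 2 of the 9 members were higher in the overexpression library, TMED5 and TMED7, and 0 were lower. Of all 11945 genes with that minimum mean FPKM, 11.9% were called higher and 0.444% lower. Both called members had an FPKM under 1 in the control and met the minimum mean only through their level in the overexpression library. With a minimum mean FPKM of 5, TMED7 at 4.91 and TMED5 at 3.58 drop out and 0 members are called. Of all genes past that minimum, 10.2% were called higher and 0.156% lower. The median log2 ratio over the 9 members was 0.51, against 0.10 over all genes past the filter. Under the trimmed mean of M values as the scaling, all log2 ratios of FPKM moved by 0.21. TMED5 and TMED7 were still the members called, against a background of 8.07% higher and 0.979% lower.

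The log2 ratios of the members went with the base composition of their transcripts. The 5 members with a GC content of 43.1% or less in the principal transcript were higher in the overexpression library, and the 4 at 47.9% or more were lower. TMED5 (37.4%) and TMED7 (37.6%) had the lowest GC content, followed by TMED2 (40.3%), TMED10 (40.4%) and TMED8 (43.1%). TMED4 (47.9%), TMED9 (56.96%), TMED3 (58.4%) and TMED1 (60.9%) followed. The members differ more after the coding sequence than within it. From the stop codon to its end, the transcript of TMED7 has 2704 bases with a GC content of 30.8%. The same part has 4931 bases with 33.3% in TMED5 and 560 bases with 58.9% in TMED1. In the coding sequence the lowest and highest GC content were 45.1% in TMED5 and 62.1% in TMED1.

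Genes of all kinds showed the same gradient, and 7 of the 9 members lay within the range of genes of like composition. Among the 1493 genes with a GC content of 35 to 40%, the median log2 ratio was 1.04, the 5th to 95th percentile ran from 0.28 to 1.77, and 53.4% were at least 2-fold higher. TMED5 and TMED7, at 2.06 and 3.29, were the 2 members above that range. At 40 to 45% the same percentiles were -0.04 and 1.296, with TMED2 (0.54), TMED10 (0.51) and TMED8 (0.87) inside. At 55 to 60% they were -0.64 and 0.24, with TMED9 (-0.61) and TMED3 (-0.56) inside.

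Once the trends on GC content and transcript length were subtracted, 1 member remained at least 2-fold higher, TMED7 at 2.28, and 0 were lower. The share of all genes called this way was 1.77% higher and 0.772% lower. TMED5 was at 0.99, just under the threshold, and at 1.02, just over it, with the trends taken from the longest coding transcript. TMED8 was at 0.34, and the other 6 members lay between -0.23 for TMED4 and TMED10 and 0.07 for TMED1. The signs of TMED2 and TMED10 turned from above 0 to -0.18 and -0.23 and that of TMED1 from below 0 to 0.07. TMED7 stood at place 11 and TMED5 at place 217 of 11913 genes.

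**Figure D3:**
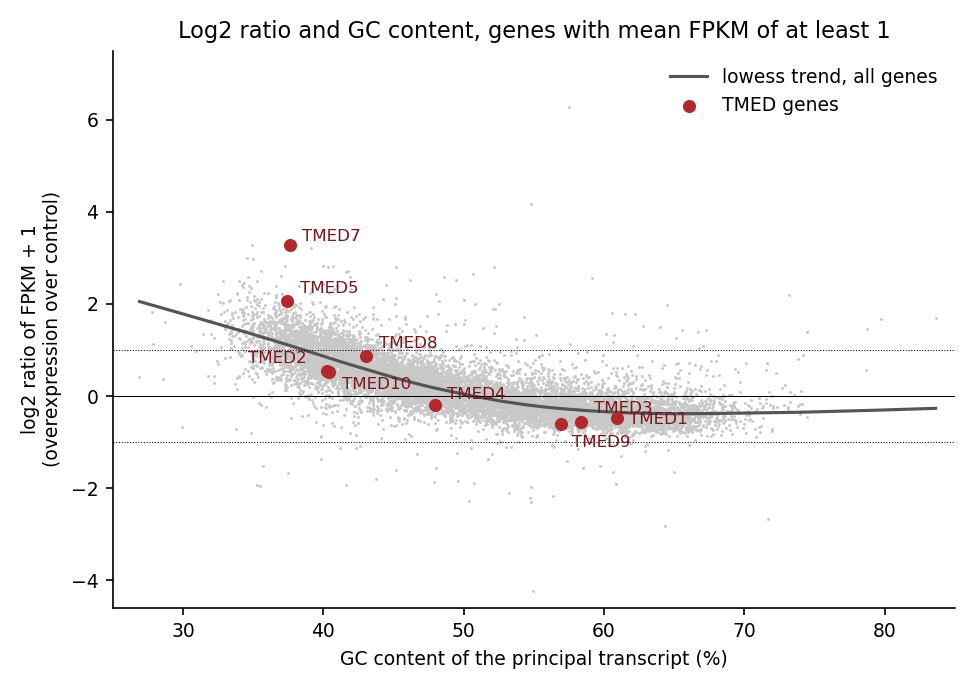
Log2 ratio of FPKM + 1, overexpression over control, against the GC content of the principal transcript for all genes past the minimum mean FPKM of 1 (grey), with the lowess trend on GC content (line) and the TMED genes (red); dotted lines mark 2-fold. TMED7 at 3.29 and TMED5 at 2.06 lie above the trend, and the other members lie near it.

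The order of the levels differed between the libraries, and it depended on the length used for scaling. In the control it ran TMED9, TMED10, TMED4, TMED2, TMED1, TMED3, TMED8, TMED5 and TMED7 by FPKM, and no neighbours had overlapping counting intervals. In the overexpression library TMED10 was first, at 78.9, and TMED9 second, at 46.0. TMED7 and TMED1 overlapped there, as did TMED5 and TMED3. The summed FPKM of the 9 members was 201.4 in the control and 222.03 with the LINC01133 plasmid, a ratio of 1.10. Per kilobase of principal transcript the sums were 403 and 377, so the direction of the family total turned with the scaling. Alpha members made up 48.3% of the summed FPKM in the control and 31.1% of it in the other library, and the delta member TMED10 27.3% and 35.5%.

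TMED3 is the member whose level rests most on this choice. Its merged exons span 19470 bases, of which the principal transcript of 1475 bases covers 7.58%. Per kilobase of the principal transcript its level was 126 in the control and 81.1 in the other library. This scaling treats all fragments of the gene as coming from the principal transcript, and where they lay along the exons was not tested. On that scale TMED3 was first in the control, its interval overlapping that of TMED9 at 117, and second in the overexpression library. Within the gamma subfamily the choice decides the share of TMED7. By FPKM it took 0.449% of the gamma sum in the control and 32.1% of it with LINC01133, and per kilobase of principal transcript 0.0729% and 9.15%. TMED3 took 89.8% and 73.7% on the second scale, and 43.4% and 20.3% by FPKM. The summed gamma level was higher in the overexpression library by FPKM, at 21.9 and 30.3, but lower per kilobase of principal transcript, at 139.9 and 110.1. Ratios of single genes between the libraries do not depend on this length.

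**Figure D4:**
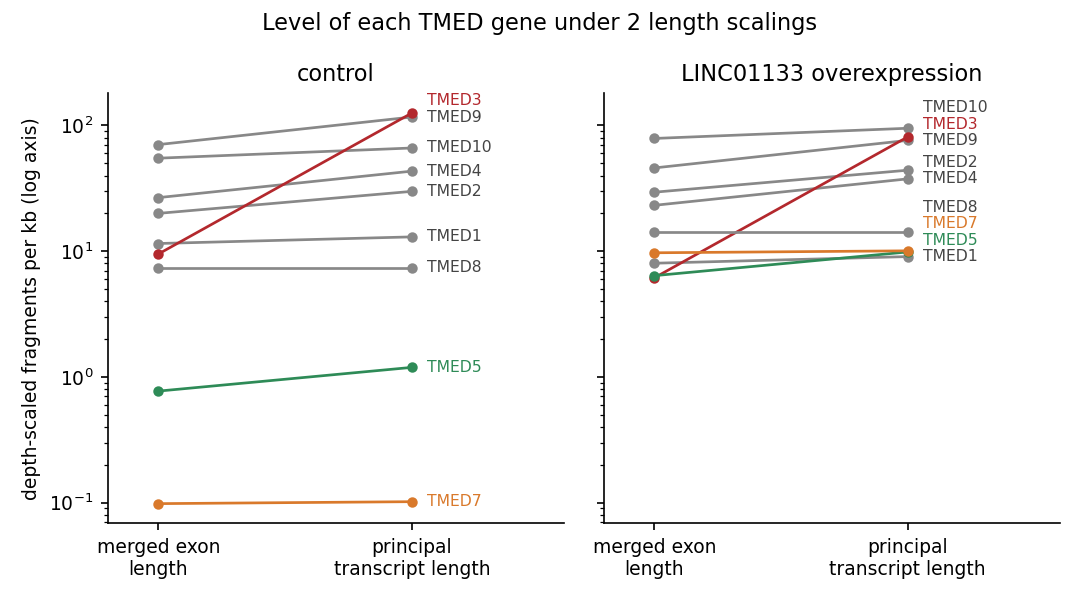
Level of each TMED gene in depth-scaled fragments per kilobase on a log axis, scaled by the merged exon length (left points, the deposited FPKM) or by the principal transcript (right points), in each library. TMED3 (red) moves from 9.51 to 126 in the control, while TMED7 (orange) hardly moves.

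Among the remaining genes with the family name, TMED6 had 7 and 9 fragments and the pseudogene TMED10P2 had 2 and 4. Their ratios of 1.24 (0.409 to 3.90) and 1.92 (0.275 to 21.2) had intervals on both sides of 1. TMED2-DT, divergent to TMED2 and sharing 7.47% of its exon bases on the opposite strand, had 12 and 23 fragments. The 3 genes with a log2 ratio closest to that of TMED7 were RNU6-875P, BMI1 and PSPHP1, a likeness over 2 libraries only. RNU6-875P, a U6 small nuclear RNA copy, had 0 and 15 fragments. BMI1, a Polycomb protein, had an FPKM of 0.387 and 11.9, with a transcript GC content of 39.1%. The pseudogene PSPHP1 had 3 and 74 fragments.

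The coats that carry p24 proteins were counted in the same way, at 2-fold in FPKM + 1. Of 8 COPI coat genes past the filter and 15 of the COPII coat and its exit sites, 0 were called in either direction. Of all genes, 11.9% were called higher and 0.444% lower. With a pseudocount of 0.1, 2 of the COPII group were called higher, and 1 with 0.5, beside 18.8% and 15.4% of all genes. By the upper quartile 1 COPI gene was lower, beside 4.24% of all genes. The median log2 ratios of both groups were 0.22 and 0.30, and -0.04 and 0.08 with the trends on GC content and length subtracted. In the COPI coat COPB1 (FPKM 17.96 and 32.4) and COPB2 (10.4 and 16.4) were higher and COPE (66.2 and 40.2) and COPG1 (61.8 and 46.5) lower. In the COPII group MIA3, a receptor for large cargo at the exit site, had 3.58 and 7.84, and the cargo-binding subunits SEC24A and SEC24B had 3.79 and 6.85 and 3.63 and 7.62. SEC23A had 9.24 and 16.03. Of 8 ARF GTPases and regulators, which recruit the COPI coat, 0 were called. Their median was -0.39, and -0.08 with the trends subtracted. By the trimmed mean of M values or the upper quartile 1 was lower, beside 0.979% and 4.24% of all genes. ARF1 had 351 and 242, ARF5 77.9 and 44.5, ARF4 39.7 and 54.4, and ARFGAP3 5.23 and 7.86.

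A further list held 18 other cargo receptors and related membrane proteins, among them the SNARE SEC22B. Of these 18, 4 were at least 2-fold higher in FPKM + 1 and 0 lower, beside 11.9% and 0.444% of all genes. Their median was 0.20. By the upper quartile 1 was higher and 1 lower, beside 5.47% and 4.24% of all genes. With a minimum mean FPKM of 5, 2 were higher, beside 10.2% of all genes. LMAN1, the lectin ERGIC-53 that exports clotting factors, had an FPKM of 10.7 and 36.2, a ratio of 3.38 (3.17 to 3.62). ERGIC2 had 2.49 and 7.14, CNIH1 14.97 and 33.1, and BCAP29 1.15 and 3.95. The transcripts of these 4 genes had GC contents of 39.6%, 34.8%, 36.7% and 38.4%, under 40% as in TMED5 and TMED7. After subtraction of both trends their log2 ratios of 1.67, 1.22, 1.09 and 1.20 became 0.81, -0.07, -0.02 and 0.25. None of the 4 then reached 2-fold, beside 1.77% of all genes higher. Among 16 SNAREs and tethers of the route between endoplasmic reticulum and Golgi, 2 were higher, the tether USO1 (12.5 and 33.2) and BLZF1 (1.85 and 4.83), and 0 lower, beside the same 11.9% and 0.444%. That count became 1 by the median of ratios and 4 with a pseudocount of 0.1, beside 8.25% and 18.8% of all genes higher. It became 0 by the upper quartile or with the trends subtracted, beside 5.47% and 1.77%. SCFD1 (3.97 and 8.91) and GOLGB1 (0.850 and 2.104) stayed under 2-fold in FPKM + 1.

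**Figure D5:**
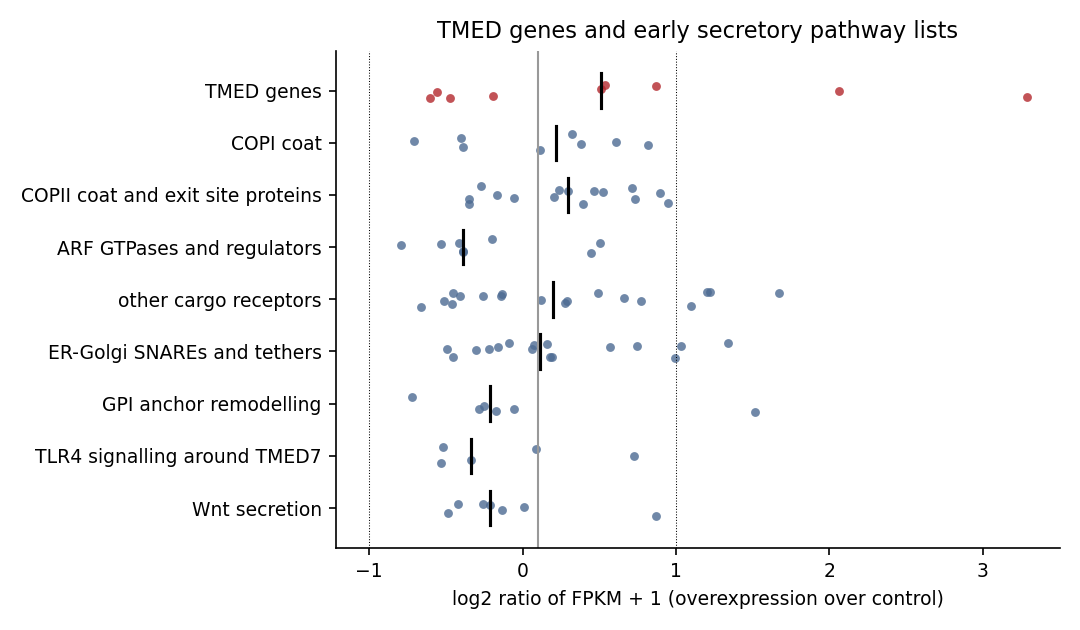
Log2 ratio of FPKM + 1, overexpression over control, for the TMED genes (red) and for genes of 8 related lists past the same minimum mean (blue); black bars are medians, the grey line is the median over all genes, and dotted lines mark 2-fold. TMED7 at 3.29 is the highest point of the plot, followed by TMED5 at 2.06.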

How the data were processed

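As deposited by the authors, each library has 1 value per gene, taken here for FPKM, a fragment count divided by exon length and library depth. The labels name no unit. The reading rests on the values, since value times merged exon length in GENCODE release 29 falls on whole multiples of 1 step per library (tolerance 0.02 of a fragment) for 94.5% and 94.4% of genes with a length. HTSeq 0.6.0, HISAT2 2.1.0 and Bowtie2 2.2.3 are named with the build GRCh38, per the submitters' processing notes. The sources used here give no annotation release, strand setting or treatment of shared fragments. The steps gave fragments per gene, and these gave Poisson intervals for levels and Clopper-Pearson intervals for ratios. The same functions were tested on simulated data with counting error only. Differences of genes as low as TMED7 in the control were not simulated. Symbols came from current gene names for the deposited identifiers.

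Log2 ratios are of FPKM + 1, overexpression over control, which understates differences of low genes. Genes whose mean FPKM reached 1 were counted at 2-fold, with no count model or p-value. The principal transcript is the one with the best APPRIS principal tag in GENCODE. Where several share that tag or none has one, coding transcripts with a 3′ UTR came first, then other coding ones, then the longest. Genes without a tag, non-coding ones among them, thus entered the trends too. Lowess trends (span 0.3, statsmodels 0.14.6) on GC content and then on log2 length were subtracted, keeping the median. Named were all members, other TMED genes, LINC01133, genes sharing member exons, the 3 genes closest to TMED7, and up to 4 genes per list with the largest absolute log2 ratio. Members and lists were chosen with earlier results of these data known. Alternatives were other scalings, filters, pseudocounts and fold thresholds, and the trends.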

Additional observations from a re-analysis of the deposited data

How the results depend on the processing

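No paired analysis was possible because there was 1 library per group. No value of the readthrough gene was analysed here, so the locus sum held TMED7 and TICAM2 only. Trends by the longest coding transcript and levels per principal transcript were added after the data were seen. Depth limits TMED7 most, with 6 fragments in the control.

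The 2 members at least 2-fold higher became 0 with a minimum mean FPKM of 5, which removes TMED5 and TMED7, against 10.2% of all genes. They became 1 after the trends on GC content and length were subtracted, against 1.77%. At 4-fold they were still 2, and at 1.5-fold 3, against 0.770% and 26.8% of all genes. The 0 members lower became 1, TMED9, by upper-quartile scaling, which shifts log2 ratios of FPKM by 0.42, and 1 at 1.5-fold, TMED9 again, against 4.24% and 5.29% of all genes. The median log2 ratio of 0.51 became 0.31 by the median of ratios, 0.30 by the trimmed mean of M values and 0.10 by the upper quartile. It turned to -0.20 with a minimum mean FPKM of 5, to -0.066 with the trends subtracted and to -0.14 by the longest coding transcript. The TMED7 log2 ratio of 3.29 became 5.63 with a pseudocount of 0.1, 4.09 with 0.5, 2.28 with the trends subtracted and 2.31 by the longest coding transcript. It lay between 3.08 and 3.18 under the other scalings. Where a value moved, the cause was not tested.

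Of the other members, TMED3 went from -0.56 to -0.07 with the trends by the principal transcript and to -0.91 by the longest, and TMED9 ranged from -1.02 to -0.14.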

Other observations

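Among 6 genes that remodel the GPI anchor, which marks proteins that p24 complexes export, 1 was higher by 2-fold or more in FPKM + 1 with the LINC01133 plasmid and 0 were lower, beside 11.9% and 0.444% of all genes. With a minimum mean FPKM of 5, only 2 of these genes passed and 0 were higher, beside 10.2% of all genes. By the upper quartile 1 was lower, beside 4.24% of all genes. PGAP1, the inositol deacylase of the pathway, was the gene called higher and had an FPKM of 0.460 and 3.17, a ratio of 6.88 (5.53 to 8.66). Like TMED5 and TMED7, it met the minimum mean FPKM of 1 only through its level in the overexpression library. Its transcript has a GC content of 34.97%, and its log2 ratio of 1.51 was 0.21 once the trends on GC content and length were subtracted. PGAP6 had 33.0 and 19.6, PGAP4 17.2 and 13.9, and PGAP2 4.15 and 3.33. Of the TLR4 signalling list around TMED7, 8 of 10 genes had a value and 5 passed the filter. At 2-fold in FPKM + 1, 0 of them were called, beside 11.9% of all genes higher and 0.444% lower. With a pseudocount of 0.1, 1 was higher, beside 18.8% of all genes. TRAF6 had an FPKM of 1.38 and 2.93, IRF3 11.2 and 7.52, the adaptor TICAM1 3.46 and 2.09, and MYD88 4.45 and 3.31. The median log2 ratio of the 5 genes was -0.34, and 0.007 with the trends on GC content and length subtracted. TLR4 itself was not analysed here.

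Of 7 genes for Wnt ligands and their secretion past the filter, 0 were called at 2-fold in FPKM + 1. The shares of all genes were 11.9% higher and 0.444% lower. With a pseudocount of 0.1, 1 of the 7 was higher, beside 18.8% of all genes. The Wnt carrier WLS had an FPKM of 32.4 and 26.9, the acyltransferase PORCN 2.71 and 1.65, WNT3A 1.83 and 1.11, and WNT5A 3.76 and 7.70. The median log2 ratio of the 7 genes was -0.21, and 0.13 with the trends on GC content and length subtracted.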
